A study of Mus musculus with 6 samples.

Results

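Accessible regions of moderate significance that were listed after Mixl1 induction and had no counterpart in Mixl1 knockout cells were described in epiblast stem cells of the mouse, a pluripotent cell type of the post-implantation embryo. These 5935 regions are called members here. They were chosen by 2 values of the deposited peak lists: an autosomal peak of the FM list with −log10 q of at least 10 and below 20, and no overlap of 1 bp with any peak of the KO list. They made up 2.90% of the 204650 autosomal FM peaks and covered 2542 kb. They were 20.6% of the 28762 autosomal FM peaks in that q range, and 50.9% of all autosomal FM peaks had no KO overlap.

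Accessibility was measured by ATAC-seq, a method that tags open chromatin with adapters carried by Tn5 transposase. Per the labels, 3 libraries came from Mixl1-inducible cells given 1 µg/mL doxycycline for the last 24 h, and 3 from Mixl1 knockout cells. All 6 were collected after 2 days of serum differentiation as embryoid bodies, from cells kept before that on irradiated mouse embryonic fibroblasts with bFGF and Activin A, and each took 50000 cells and 11 PCR cycles. The promoter driving the induced Mixl1, the state of the cells' own Mixl1 gene and the number of clones are not stated in the sources used here, nor is whether the triplicates came from separate cultures. Each group had 1 peak list. No label explains the name FM, and that list was set to the induced group by elimination. With 1 list a group there was no replicate error and no test between groups could be made, so values are descriptions and the 95% exact (Clopper-Pearson) intervals in parentheses cover the counting of peaks only. Read depth is unknown, and a region open in more cells cannot be told apart from one more open in each cell.

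The homeobox gene Mixl1 encodes a transcription factor made in the primitive streak, the embryonic structure from which mesoderm and endoderm arise. Homeodomain proteins bind short AT-rich sites, many of them in enhancers. Enhancers are commonly accessible in few cell types and lie far from genes or inside introns, while promoters rich in CpG dinucleotides are accessible in most cell types. As a check of the labelled cell type, which did not single it out, an FM peak summit lay within 1 kb of an end of 18 of 23 autosomal genes of the pluripotency and epiblast list and a KO summit at 19 of 23. Nanog, Zfp42, Dppa3, Dppa4 and Dnmt3a had no FM summit there. Of 17 fibroblast genes, 11 had a summit there in FM and 11 in KO, and Col3a1, Postn, Dcn, Lum, Fap and S100a4 had none in FM. Other lists had such summits too: 21 of 22 primitive streak genes in FM and 19 in KO, 17 of 20 neurectoderm genes in FM and 17 in KO, and 10 of 14 genes of unrelated organs in FM and 5 in KO. Over all 20661 protein-coding autosomal genes the counts were 15326 in FM and 14702 in KO. The part of remaining feeder cells in any result was not tested.

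Sequences are shown first for the few members that reach the stretch around an annotated gene start, to show how varied the DNA under them was. RefSeq promoter windows (GRCm38.p6, the assembly that mm10 names) run from 250 bases before to 50 after a start. They were at hand for 16456 of the 20661 genes, and 1 chromosome had none. Members overlapped 78 windows of 73 genes, and 20 windows lay wholly inside a member. Among these 20 alone, 1 window was kept per gene. Picked were those of the 2 genes with the most CpG (S1pr5 27, Tekt1 20) and the 2 with the fewest (Rab3il1 1, Atp4a 2). Their 250 bases before the start are given, 5′ to 3′ on the gene's strand, with each CpG in capitals, and positions and CpG counts beside them are of these 250 bases. S1pr5, a receptor for sphingosine-1-phosphate, has its stretch at chr9:21248444-21248693 on the minus strand with 22 CpG, under a member of fold 2.15. Tekt1, a tektin of cilia and sperm tails, has one at chr11:72361883-72362132 on the minus strand with 18 CpG, under a member of fold 2.88. Atp4a, the alpha subunit of the gastric proton pump, has one at chr7:30711959-30712208 on the plus strand with 2 CpG, under a member of fold 2.14. Rab3il1, an exchange factor for Rab GTPases, has one at chr19:10001419-10001668 on the plus strand with 1 CpG, under a member of fold 2.32. The pick was made after the values were seen.
S1pr5: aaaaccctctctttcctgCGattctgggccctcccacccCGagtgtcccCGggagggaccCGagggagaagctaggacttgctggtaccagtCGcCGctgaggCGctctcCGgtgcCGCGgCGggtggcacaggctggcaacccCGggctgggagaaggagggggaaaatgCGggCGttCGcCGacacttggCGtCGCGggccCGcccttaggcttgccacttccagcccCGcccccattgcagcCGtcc
Tekt1: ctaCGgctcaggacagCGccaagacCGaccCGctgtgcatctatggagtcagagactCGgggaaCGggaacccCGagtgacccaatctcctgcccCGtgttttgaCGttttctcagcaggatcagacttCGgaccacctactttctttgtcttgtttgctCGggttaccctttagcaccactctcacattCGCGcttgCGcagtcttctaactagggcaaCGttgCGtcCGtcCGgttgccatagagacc
Atp4a: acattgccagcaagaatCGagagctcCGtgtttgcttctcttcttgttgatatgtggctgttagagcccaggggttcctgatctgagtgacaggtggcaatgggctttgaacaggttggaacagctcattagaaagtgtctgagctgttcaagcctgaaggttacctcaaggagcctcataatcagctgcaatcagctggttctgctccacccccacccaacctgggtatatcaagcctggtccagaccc
Rab3il1: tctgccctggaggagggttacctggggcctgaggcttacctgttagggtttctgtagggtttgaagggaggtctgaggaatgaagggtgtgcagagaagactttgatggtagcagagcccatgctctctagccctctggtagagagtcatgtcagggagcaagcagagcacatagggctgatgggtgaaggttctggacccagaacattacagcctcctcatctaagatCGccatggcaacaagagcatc

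CpG-rich windows were the smaller part of those that members reached. A window counted as CpG-rich where the observed number of CpG was at least 0.6 of that expected from its C and G content. Counts were over the whole window, of which a member may cover only a part, such as 129 bases at Tac1 and 48 at Krtap5-2. Under members 11 of 78 windows were CpG-rich (14.1%, 7.26 to 23.8). Under FM peaks of the same q range that overlapped a KO peak, called shared peaks here, 658 of 1512 were (43.5%, 41.0 to 46.1). Under KO peaks of that range with no FM overlap, called KO-specific peaks here, 11 of 33 were (33.3%, 17.96 to 51.8). The intervals of members and shared peaks did not overlap, while those of members and KO-specific peaks did. These intervals count each window apart, though windows of 1 gene can overlap, as those of Tcam1 do. The 78 windows under members were of 73 genes, and the 1512 under shared peaks of 1368. Over all 20084 windows 48.9% were CpG-rich, and over the 6186 windows with no FM peak 4.87% were. The median number of CpG per window was 5 under members, 12 under shared peaks and 8 under KO-specific peaks. The CpG-rich windows under members included Tac1, which encodes the substance P precursor, with 22 CpG and an observed-to-expected ratio of 1.01, and Tle2, a Groucho-type co-repressor, with 28. Dbx1, a homeobox gene of the neural tube, and Epha3, an ephrin receptor, had 15 and 18 CpG. Krtap5-2, a hair keratin-associated protein, and Phgr1 had windows with 0.

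Short motifs were not set apart in the windows under members. Exact matches on either strand were counted for 12 motifs over the whole window, including bases outside the peak. The paired homeodomain site, TAAT and ATTA with 3 bases between, was in 0 of 78 windows, which allows a share of up to 4.62%, against 0.331% of windows under shared peaks and 0.383% of all windows. The homeodomain core TAATTA was in 6.41% (2.11 to 14.3) under members, 4.37% under shared peaks and 4.47% of all. The GATA motif AGATAA was in 12.8% (6.32 to 22.3) under members, 6.94% (5.71 to 8.34) under shared peaks and 9.57% of all. The T-box motif AGGTGT was in 15.4%, 14.2% and 12.7% in the same order, and the E-box CAGGTG in 23.1%, 27.1% and 20.0%. For each of these the interval of members overlapped that of shared peaks. With 78 windows only large differences would show, and windows at gene starts are a small part of the members.

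The 5935 members also lay on 9 of the 919 autosomal miRNA hairpins in the RefSeq table, against 34 for the 22827 shared peaks and 2 for the 2902 KO-specific peaks. Relative to the size of the sets, members and shared peaks were about alike, so the hairpins do not set members apart. The annotation used here listed 15 mature miRNAs for these hairpins, with 15 different seeds, so no seed was shared among those listed. For Mir292 only the 5p arm was listed. The 3 hairpins given here are in a pluripotency cluster, in a host gene on the lists and the best known of the rest. Capitals mark the seed, bases 2 to 8. The hairpin of Mir292 (chr7:3219189-3219270), part of the miR-290 cluster that is abundant in mouse pluripotent cells, was reached over its first 9 bases by a member at chr7:3218771-3219197 with fold 2.41, 211 bp from a KO peak. The hairpin of Mir7025 (chr5:75176831-75176904) lies inside Pdgfra and wholly inside a member of fold 2.53, 614 bp from a KO peak. The hairpin of Mir101a (chr4:101346945-101347027), whose human counterpart is known to repress the Polycomb enzyme EZH2, lies wholly inside a member of fold 2.57, 1079 bp from a KO peak.
mmu-miR-292a-5p: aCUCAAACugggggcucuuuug
mmu-miR-7025-5p: cGUGAGCUgaagcugguggcuccc
mmu-miR-7025-3p: cAGCACAAcuccagcucaccag
mmu-miR-101a-3p: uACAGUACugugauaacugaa
mmu-miR-101a-5p: uCAGUUAUcacagugcugaugc

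Most members lay in gene bodies or between genes, away from gene ends. In 345 members the summit was within 1 kb of a gene end (5.81%, 5.23 to 6.44), against 11.6% (11.2 to 12.04) of the 22827 shared peaks and 5.96% (5.13 to 6.89) of the 2902 KO-specific peaks. It was elsewhere in a gene body in 3205 members (54.0%, 52.7 to 55.3), in 49.7% (49.1 to 50.4) of shared peaks and in 42.4% (40.6 to 44.2) of KO-specific peaks. The other 2385 members (40.2%, 38.9 to 41.4) were intergenic, against 38.7% of shared peaks and 51.7% (49.8 to 53.5) of KO-specific peaks. Members therefore had a share at gene ends like that of KO-specific peaks. Their gene-body share, which leaves out summits within 1 kb of a gene end, was larger than that of shared or KO-specific peaks. With summits inside a gene but near its end counted too, 57.7% of members and 57.8% of shared peaks lay inside a gene. Members were thus not more often inside genes than shared peaks. These gene-end and gene-body shares were not particular to members. FM peaks with no KO overlap and −log10 q below 10 had 4.63% at gene ends and 55.6% in gene bodies. All autosomal FM peaks had 10.5% and 51.3%. A promoter window was touched by 72 members (1.21%, 0.9504 to 1.53), by 5.98% of shared peaks and by 1.07% of KO-specific peaks. These shares are of all peaks in each set, including those near genes for which no window was at hand. The median distance from the summit to the nearest gene end was 16.7 kb for members, 12.7 kb for shared peaks and 21.5 kb for KO-specific peaks. More than 100 kb from any gene end were 10.4% of members, 8.24% of shared peaks and 17.4% of KO-specific peaks. For all autosomal FM peaks the median distance was 15.5 kb and 10.6% lay more than 100 kb away, both near the members' values.

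**Figure D1:**
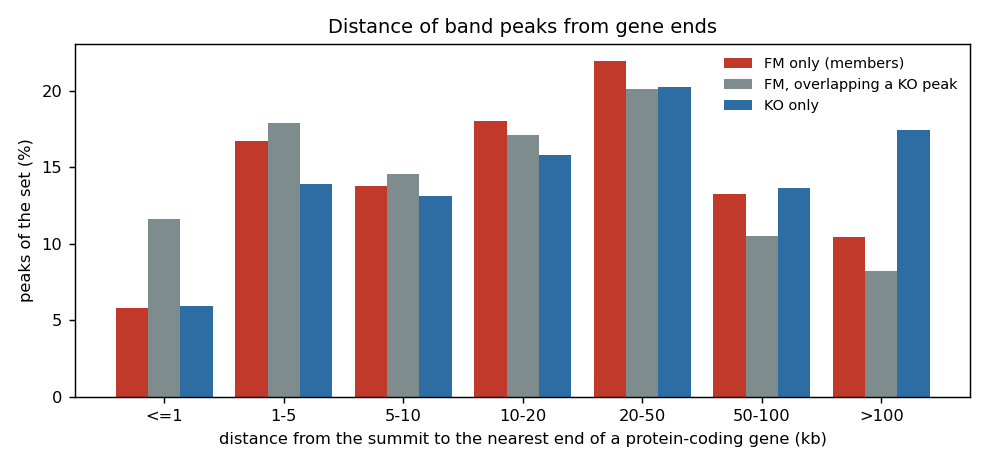
Percent of peaks (y axis) by distance from the summit to the nearest end of a protein-coding gene in kb (x axis), for members, shared peaks and KO-specific peaks, all of −log10 q 10 to under 20. Within 1 kb the member bar (5.81%) is beside the KO-specific one (5.96%) and under the shared one (11.6%), and beyond 100 kb the KO-specific bar (17.4%) is the tallest.

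The gene-end difference from shared peaks was seen at 3 of 4 matched widths. Among peaks 200 to 300 bp wide the gene-end share was 6.38% (5.29 to 7.61) of members and 8.11% (6.97 to 9.37) of shared peaks, with overlapping intervals. From 300 to 400 bp it was 5.04% of members and 8.04% of shared peaks, from 400 to 600 bp 5.53% and 10.0%, and from 600 to 1000 bp 6.64% and 13.0%, and none of these 3 pairs of intervals overlapped. Inside genes with a known start, members leaned away from the start. The first 25% of the gene's length held 20.3% (18.8 to 21.8) of 2737 members, 25.7% (24.9 to 26.6) of 10234 shared peaks and 28.5% (25.7 to 31.5) of 947 KO-specific peaks. The last 25% held 31.2% (29.5 to 33.0) of members, 29.8% (28.9 to 30.7) of shared peaks and 23.4% (20.8 to 26.3) of KO-specific peaks. FM peaks with no KO overlap and −log10 q below 10 were like members, with 20.0% in the first 25% and 30.2% in the last. All autosomal FM peaks had 25.9% and 28.4%. The genes around members had a median length of 81.3 kb, against 65.6 kb for shared peaks and 97.0 kb for KO-specific peaks.

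The values used for the choice are given as a description. Of the 18384 autosomal KO peaks in the same q range 15.8% had no FM overlap, against the 20.6% of FM peaks that are the members. There were 2.05 members for each KO-specific peak. The peak caller's fold over local background ran between 1.61 and 3.21 in members with a median of 2.52, and the median was 2.46 in shared peaks and 2.58 in KO-specific peaks. The median −log10 q was 11.8 in members, 13.3 in shared peaks and 12.5 in KO-specific peaks. Members crowded at the low end of the range: 3283 were below 12, where 29.97% of FM peaks had no KO overlap, and 152 were at 18 or above, where 6.02% had none. Just inside the lower bound, members at Phgr1 and Lrrc2 had −log10 q of 10.0005 and 10.0035. Just outside it, FM peaks at Sdhb and Rbm19 with no KO overlap had 9.99965 and 9.99902. Just inside the upper bound, a member in Btbd9 had 19.97, and just outside it a peak in Lemd3 had 20.01.

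Members were narrower than shared peaks but not than FM peaks in general, and most had 1 summit. Their median width was 367 bp (quartiles 286 and 517), against 572 bp in shared peaks and 322 bp in KO-specific peaks. It was 345 bp over all autosomal FM peaks, and 277 bp over FM peaks with no KO overlap and −log10 q below 10. Several summits were listed in 1151 members (19.4%, 18.4 to 20.4), in 44.0% (43.4 to 44.7) of shared peaks and in 14.8% (13.5 to 16.2) of KO-specific peaks. All autosomal FM peaks had 25.8%, and FM peaks with no KO overlap and −log10 q below 10 had 13.1%. The share of FM peaks in the q range with no KO overlap was 46.5% at 200 to 300 bp, 30.9% at 300 to 400 bp, 19.5% at 400 to 600 bp, 10.4% at 600 to 1000 bp and 3.10% above that. Overlap was counted over the whole peak, so width is not independent of the choice. The widest member, chr7:125541507-125543313 near the interleukin-4 receptor gene Il4ra, spanned 1807 bp with 5 summits and lay 361 bp from a KO peak. The next widest, 1645 bp, was inside Atp6v0a2, a subunit of the vacuolar proton pump.

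**Figure D2:**
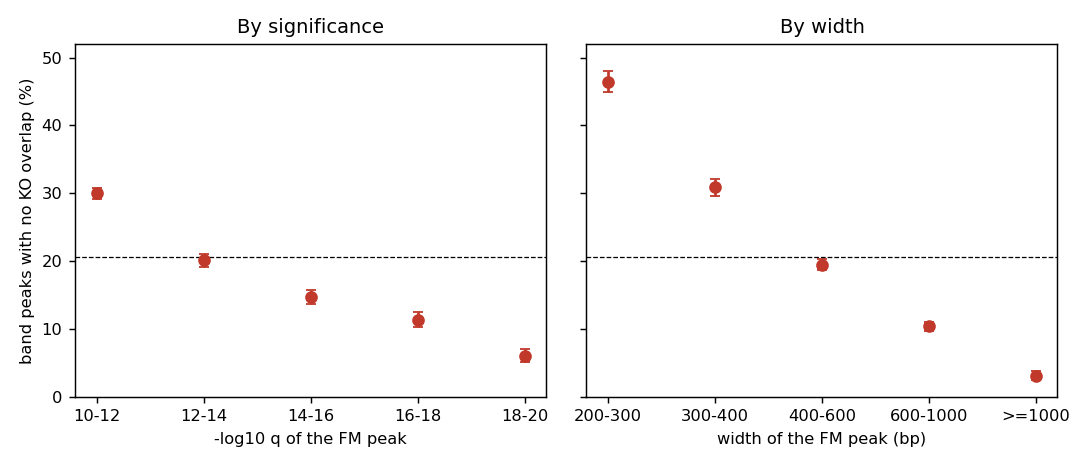
Percent of autosomal FM peaks of −log10 q 10 to under 20 with no KO overlap (y axis), by −log10 q on the left and by width in bp on the right. Bars are 95% exact intervals and the dashed line is the 20.6% over the whole range; the points fall from 29.97% to 6.02% with rising −log10 q and from 46.5% to 3.10% with rising width.

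Many members had a KO peak close by without overlap. The nearest KO peak lay 4 bp to 2253740 bp away, with a median of 2372 bp and quartiles of 772 and 6107 bp. It was under 100 bp away from 100 members and 100 to 500 bp away from 959. It was 1 to 5 kb away from 2343 members (39.5%) and over 100 kb away from 41 (0.691%). The nearest pair was a member in Fkbp6, an immunophilin needed in male meiosis, 4 bp from a KO peak. The farthest member, chr5:60042927-60043127, had fold 2.84 and lay over 100 kb from any protein-coding gene. The next, at an end of Pabpc4l, had fold 2.94 and lay 1069093 bp from the nearest KO peak. The highest fold, 3.21, was shared by 11 members. Of the 10 listed, 4 lay inside Enah, an actin regulator, Slc25a21, a mitochondrial carrier, Pcca, a subunit of propionyl-CoA carboxylase, and Gtf2h1, a subunit of the transcription factor TFIIH. The other 6 were intergenic.

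Members were unevenly spread over the autosomes. The share of FM peaks in the q range with no KO overlap was lowest on chromosome 15 (12.6%, 10.7 to 14.6) and chromosome 18 (13.4%, 11.1 to 16.1). It was highest on chromosome 16 (25.6%, 22.7 to 28.6), chromosome 6 (24.8%) and chromosome 9 (24.2%). On chromosome 15 there were 149 members and 276 KO-specific peaks, and on chromosome 18 there were 102 and 172. On the other 17 of 19 autosomes members were the more numerous. Chromosome 12 had the most members, 493, and 72.6 members per 100 protein-coding genes, while the other autosomes had between 19.2 and 34.4. Its share with no KO overlap was 20.2%, close to that of all autosomes. Folds below 2 were found in 436 members (7.35%, 6.70 to 8.04) and 7.07% of shared peaks, and 84 of these members were on chromosome 17 (23.1% of its members) and 64 on chromosome 12 (13.0%).

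Over 292 windows of 5 Mb with at least 30 FM peaks in the q range, the share with no KO overlap had a median of 21.2% and ran between 5.63% and 52.9%. The interval lay above the overall share in 21 windows and below it in 19. The highest was chromosome 17 between 40 and 45 Mb, with 46 members, 41 shared peaks and 4 KO-specific peaks (52.9%, 41.9 to 63.7). Chromosome 6 between 145 and 150 Mb had 32 members and 39 shared peaks (45.1%), and chromosome 5 between 100 and 105 Mb had 26 and 33 (44.1%). The lowest was also on chromosome 17, between 10 and 15 Mb, with 4 members and 67 shared peaks.

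The surroundings of members held more FM peaks with no KO overlap than those of shared peaks, at a level near that of FM peaks in general. Among the other FM peaks within 50 kb of a member, counted once for each member, 50.9% had no KO overlap, against 47.1% around shared peaks. Around all autosomal FM peaks it was 49.8%, and around FM peaks with no KO overlap and −log10 q below 10 it was 51.9%. The members' value equals, to 3 digits, the 50.9% of all autosomal FM peaks with no KO overlap. Members were higher than shared peaks on 19 of 19 autosomes, for example 58.6% against 51.97% on chromosome 6 and 39.6% against 38.7% on chromosome 15. With the neighbours taken from outside the q range the shares were 56.0% around members and 52.5% around shared peaks, again higher for members on 19 of 19. The shares at 20 kb were 50.8% and 46.4%, and at 100 kb 50.8% and 47.6%. Each FM peak can be counted around several members, so no interval is given.

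**Figure D3:**
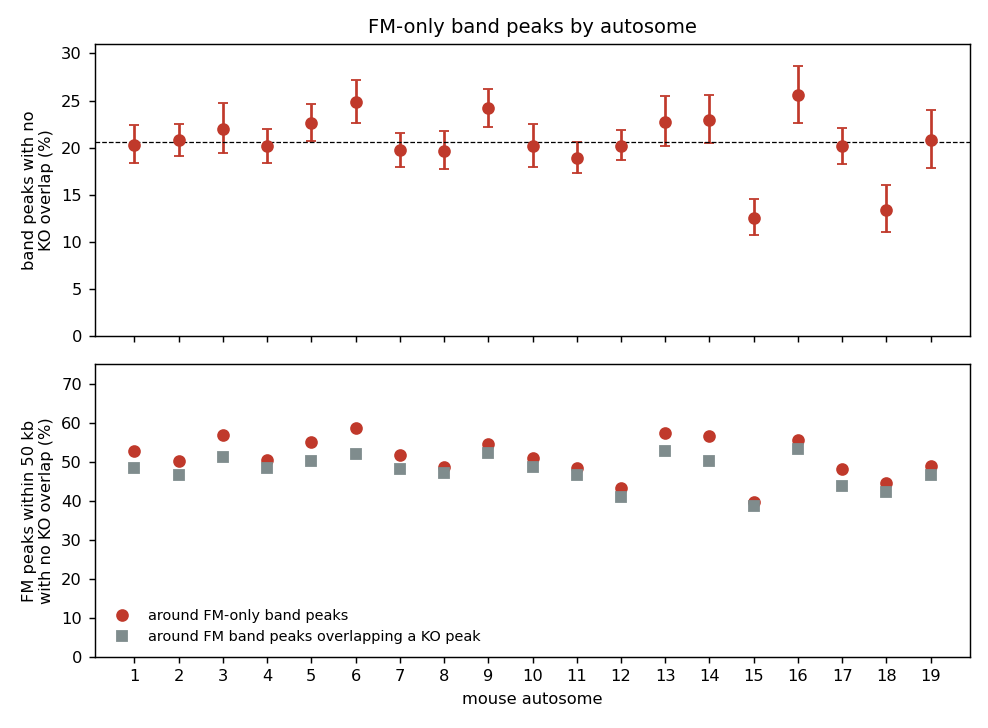
Upper plot, percent of autosomal FM peaks of −log10 q 10 to under 20 with no KO overlap by chromosome, with 95% exact intervals and a dashed line at 20.6%. Lower plot, percent of other FM peaks within 50 kb with no KO overlap, around members (circles) and around shared peaks (squares); chromosomes 15 and 18 are lowest in the upper plot and the circle is above the square on all 19 autosomes.

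More members lay alone than in runs, at a joining distance of 50 kb. The nearest other member was a median of 58.8 kb away, and 2679 members (45.1%, 43.9 to 46.4) had one within 50 kb. This share was 61.3% on chromosome 17 and 58.0% on chromosome 12, and 22.1% on chromosome 15. Shared peaks and KO-specific peaks had 84.6% and 24.7%, but these sets differ in size, which sets the spacing. Members at most 50 kb apart were joined into chains, giving 3256 single members, 790 pairs, and 313 chains of at least 3 that held 1099 members (18.5%). The longest had 7 members, and there were 5 of these.

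The chain on chromosome 4 (chr4:118756953-118868678) lay in a cluster of olfactory receptor genes, Olfr1338, Olfr1337, Olfr1335 and Olfr1333. Its 7 members had folds of 2.48 to 2.86, with no shared or KO-specific peak of the q range between them. In all, 29 FM peaks and 2 KO peaks of any significance lay in this span of 111.7 kb. The chain at chr17:44420150-44587005 covered part of Runx2, the master transcription factor of bone formation, and the region beside it. Its 7 members had folds of 2.19 to 2.68, and the span held 47 FM peaks and 11 KO peaks. The chain at chr17:43239142-43431138 lay over the adhesion receptor genes Adgrf1 and Adgrf5, with folds of 2.25 to 2.99, and held 40 FM peaks and 15 KO peaks. All these spans held more FM than KO peaks, as did the whole genome (204650 and 138130 autosomal peaks). The chain at chr12:112555057-112684083, over Inf2, Adssl1, Siva1, the kinase gene Akt1 and Zbtb42, was the one with most shared peaks, 9, and had folds of 1.64 to 2.33. The chain on chromosome 18 at St8sia5, a sialyltransferase, and Loxhd1, a protein of hair cells in the inner ear, held 34 FM peaks and 18 KO peaks. A chain of 6 at chr1:61354069-61465610 overlapped no protein-coding gene and held 21 FM peaks and 1 KO peak. It was picked after its values were seen.

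**Figure D4:**
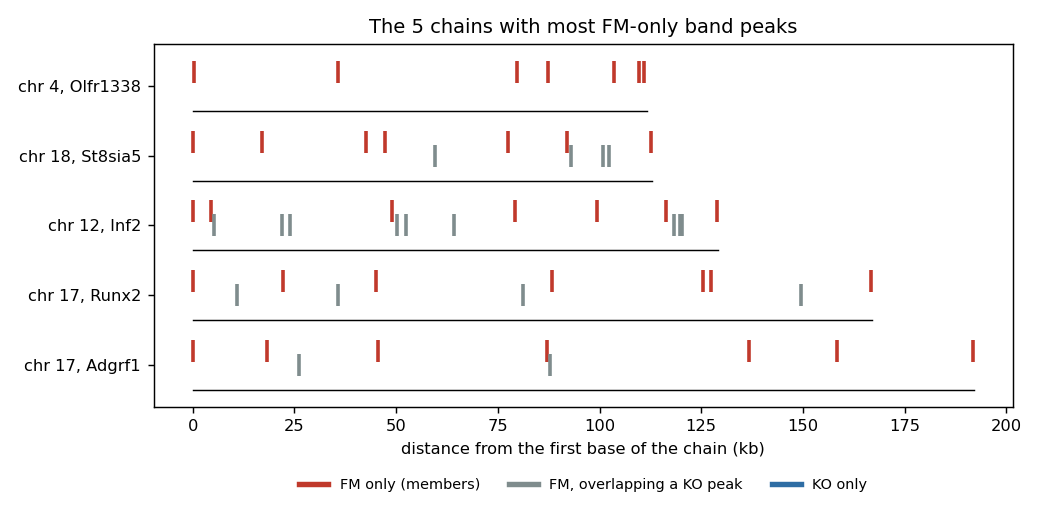
Positions of members, shared peaks and KO-specific peaks of −log10 q 10 to under 20 along the 5 chains of 7 members, as distance in kb from the first base of the chain (x axis), labelled by chromosome and first gene. No KO-specific peak lies in any of the 5, and the chromosome 4 chain holds members alone.

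The nearest protein-coding gene within 100 kb was found for 5600 members (94.4%), which gave 4011 genes, 19.4% of the 20661 on the autosomes. One member was assigned to 2959 of these genes and 2 to 693. Genes with a member were long, with a median of 41.8 kb against 28.2 kb for genes with a shared peak, 48.0 kb for genes with a KO-specific peak and 17.5 kb for all genes. A member was assigned to 7.85% of genes under 10 kb and to 42.9% of those of 100 to 300 kb. Per Mb of gene, members inside numbered 6.16 in genes under 10 kb and 3.51 in the 100 to 300 kb class, so longer genes had more members but at a lower density. The share of q-range FM peaks with no KO overlap was 16.7% at genes under 10 kb, 19.4% at 10 to 50 kb, 21.9% at 50 to 100 kb, 21.8% at 100 to 300 kb and 24.5% at genes above that.

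Runx2 had the most members, 10, of which 7 lay inside the gene, with 7 shared peaks and 0 KO-specific peaks. Supt3, a subunit of the SAGA transcription complex that overlaps Runx2 in the annotation, had 6 members, 3 shared and 0 KO-specific peaks, and 1 member, chr17:44791726-44792343, lies inside both genes and counts for each. A further 10 genes had 7 members each, and all of these but Tnfrsf21 were over 200 kb long. Among them, genes of the nervous system were Csmd2, a synaptic membrane protein, with 8 shared and 2 KO-specific peaks, Npas3, a transcription factor, with 8 and 2, Tenm4, a teneurin adhesion protein, with 11 and 1, and Zfp536, a zinc finger repressor of neuronal differentiation, with 12 and 1. Tiam1, an activator of the GTPase Rac, had 10 shared and 0 KO-specific peaks, and Akap6, a protein kinase A anchor of muscle, had 6 and 0. Ldlrad3 had 6 and 1, and Tspear 7 and 0. Dnah8, an axonemal dynein of sperm tails, had 32 shared and 0 KO-specific peaks, so its 7 members were 17.9% of its q-range FM peaks. Tnfrsf21, the death receptor DR6, was 72.6 kb long with 4 shared peaks and 1 KO-specific peak, and 3 of its 7 members lay inside it. Among the 20 genes with most members, members outnumbered shared peaks most at Smoc1, a secreted calcium-binding matrix protein, with 6 members, 2 shared and 1 KO-specific peak. At Fryl there were 6 members, 3 shared and 0 KO-specific peaks, and at Thsd4, a microfibril protein, 6, 5 and 2. Cdh4, which encodes R-cadherin, had 6, 10 and 2, Hhat, the acyltransferase of Hedgehog proteins, 6, 6 and 0, and Pdzd2 6, 8 and 1. Btbd9 had 6, 18 and 1, and Ttll5, a tubulin glutamylase, 6, 12 and 2.

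The lists of genes of early development were chosen with earlier results of these data known. At all genes 20.4% of q-range FM peaks were members, 19.4% of genes had a member and 10.3% had a KO-specific peak. The primitive streak and mesendoderm list, which holds the genes that Mixl1 is expressed with, had the lowest share, 3 members and 75 shared peaks (3.85%, 0.800 to 10.8), and its interval lay below 20.4%. Members lay near 3 of its 22 genes, and KO-specific peaks, 11 in all, near 10. The members were 33.2 kb upstream of Gsc, the organizer homeobox gene, with fold 2.40, 15.7 kb from Fgf8, a growth factor of the streak, with fold 2.499, and 42.1 kb upstream of Lef1, a mediator of Wnt signalling, with fold 2.91. At Mixl1 itself there were 0 members, 0 shared peaks and 1 KO-specific peak. The Nodal and Activin list had 3 members and 38 shared peaks (7.32%, 1.54 to 19.9). The nearest genes of these members were Smad2 and Smad3, which carry the Nodal signal, and Chrd, a BMP antagonist. They lay outside the genes, 27.4 kb from Smad2, 92.7 kb from Smad3 and 87.1 kb from Chrd. The Chrd member lay 76 bp and the Smad3 member 194 bp from a KO peak.

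The definitive endoderm list had members at 6 of 22 genes, 9 members and 35 shared peaks (20.5%, 9.80 to 35.3), with 2 KO-specific peaks. Those described here were at the transcription factor genes Foxa2, Gata4, Sox7 and Nkx2-1 and at the chemokine receptor gene Cxcr4, all outside the gene. The Foxa2 member of highest fold, chr2:147968754-147969181, lay 73.9 kb from the gene and 31.6 kb from the nearest KO peak. The Nkx2-1 one had fold 2.84 and lay 74.7 kb from the gene. The Sox7 one was the nearest to its gene, at 3.82 kb, and 663 bp from a KO peak.

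The mesoderm and cardiac list had members at 8 of 24 genes, 14 members and 53 shared peaks (20.9%, 11.9 to 32.6), with 6 KO-specific peaks. Pdgfra, a growth factor receptor of early mesoderm, had 2 members inside it, 3 shared and 0 KO-specific peaks, and 1 of the 2 covers the Mir7025 hairpin shown above. Runx1, a regulator of blood formation, had 3 members and 3 shared peaks, and Pax2, of the kidney lineage, 3 and 8. Tbx5, of the heart and forelimb, had 2 members and 1 shared peak, and Tbx20, also of the heart, 1 and 0. Hand1, of lateral mesoderm and heart, Lmo2, a cofactor in blood formation, and Msx1, a homeobox gene under BMP control, had 1 member each. The Tbx20 and Tbx5 members of highest fold lay 19.7 kb and 12.7 kb from the nearest KO peak.

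The pluripotency and epiblast list had members at 8 of 23 genes, 15 members and 66 shared peaks (18.5%, 10.8 to 28.7), with 3 KO-specific peaks. Esrrb, an orphan receptor of naive pluripotency, had 4 members and 21 shared peaks, and Tbx3 3 and 5. Sox2, a core pluripotency factor, had 2 members and 2 shared peaks, and its member of highest fold, 2.54, lay 89.5 kb upstream. Dnmt3b, a DNA methyltransferase of the epiblast, had 2 members and 3 shared peaks. Prdm14, a regulator of germ cell specification and pluripotency, had 1 member with fold 3.07, 57.1 kb from the gene. Tfcp2l1, Sall4 and Lin28a had 1 member each.

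The neurectoderm list had members at 6 of 20 genes, 9 members and 38 shared peaks (19.1%, 9.15 to 33.3), with 8 KO-specific peaks. Irx5 had 2 members and Irx3, a related homeobox gene, had 1, as did Hesx1, a homeobox gene of the forebrain and pituitary, and there were 0 shared peaks at these genes. The Irx3 member lay 58.2 kb from the gene, and the Irx5 member of highest fold 76.0 kb. Olig2, a factor of motor neuron and oligodendrocyte precursors, had 2 members and 1 shared peak. Pax7, of the dorsal neural tube and muscle stem cells, had 2 and 3, and Sox1, an early neural marker, 1 and 3. The trophoblast and visceral endoderm list had members at 8 of 17 genes, the largest share of genes of any list. It had 11 members and 37 shared peaks (22.9%, 12.03 to 37.3). Its genes had a median length of 18.2 kb, against 27.9 kb in the fibroblast list and 4.74 to 11.9 kb in the others. The part of gene length in this ranking was not tested. Lama1, a laminin of basement membranes, had 3 members and 0 shared peaks, Bmp8b 2 and 1, and Elf5, Krt7, Dab2, Cubn, Ascl2 and Hand1 1 member each. The fibroblast list had members at 4 of 17 genes, 7 members and 21 shared peaks (interval 10.7 to 44.9%): 3 at Twist2, 2 inside Fbn1 and 1 each at Col1a1 and Col6a1. The Twist2 member of highest fold, 2.70, had −log10 q of 19.2. Genes of unrelated organs had 4 members and 11 shared peaks (26.7%, 7.79 to 55.1), at Myh6, Umod, Cd3e and Myod1. Housekeeping genes had 1 member and 21 shared peaks (4.55%, 0.115 to 22.8). This member lay 54.2 kb from Ywhaz and 90 bp from a KO peak. The intervals of all lists except the primitive streak and Nodal lists held the 20.4% of all genes, and the intervals of the mesoderm, endoderm, fibroblast and organ lists overlapped each other. Genes of the streak and Nodal lists had median lengths of 6.32 and 10.6 kb. At all genes under 10 kb the share was 16.7%, and at 10 to 50 kb 19.4%. The Nodal interval holds both values, and the streak interval lies below both. Members lay near 13.6% of streak genes and 15% of Nodal genes, against 19.4% of all genes. Several peaks can lie at 1 gene, which the intervals do not allow for, and the part of gene length was not tested.

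**Figure D5:**
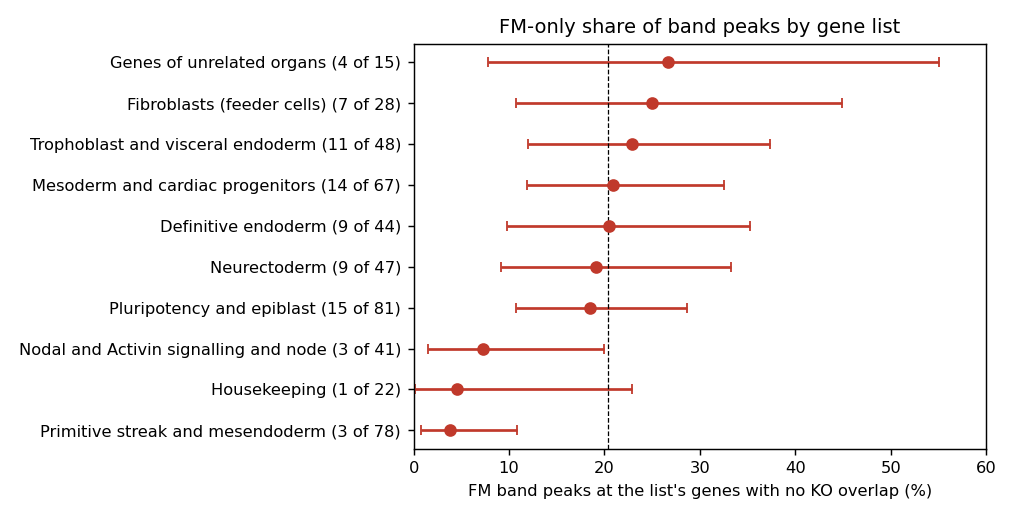
Percent of FM peaks of −log10 q 10 to under 20 at the genes of each list that had no KO overlap (x axis), with 95% exact intervals, the counts of members and of all such FM peaks beside each name, and a dashed line at the 20.4% of all protein-coding autosomal genes. The primitive streak list (3.85%) and the Nodal list (7.32%) have intervals wholly below the line. The line is not matched to the lists for gene length.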

How the data were processed

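ATAC-seq was made in 6 libraries of 2 groups. The submitters' processing notes name MACS2, Bowtie2, SAMtools and bcl2fastq without versions, and mm10 as build. The authors deposited 1 narrowPeak list a group; how the libraries were combined, and any read shift or duplicate filter, are not stated in the sources used here. Each peak's fold over local background (a ratio) and the −log10 of its p-value and q-value are the authors' deposited values, used to choose and describe peaks within a list. The lowest −log10 q was 1.30 in both lists, a q of 0.05. The fold values carry no depth in reads.

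Rows sharing start and end (279817 FM rows, 191107 KO rows) were reduced to the row with the lowest p-value, leaving 205974 and 139351 peaks. Places, chains (50 kb) and nearest genes (100 kb, ties counted for each) used the summit and RefSeq genes of GRCm38.p6; the table has no strand, so distances are from gene ends. Shares carry Clopper-Pearson intervals at 95% (scipy 1.17.1, pandas 2.3.3, numpy 2.4.6, Python 3.11.15). The interval functions were tested on simulated data. The members and gene lists were chosen with earlier results of these data known. Named were the 20 genes with most members (ties by members inside), every list gene with a member, the members of highest fold, greatest width and at each q bound, and the 5 longest chains. A few genes under this rule are not reported here. The planned motif and GC content of the members' own sequence were not run, as no genome was used here; promoter windows, miRNAs, width classes, position along genes and 5 Mb windows were added after the files were seen. Alternatives changed the q range, overlap rule, KO threshold, gene-end window, point, gene set, reach, chain distance and chromosomes.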

Additional observations from a re-analysis of the deposited data

How the results depend on the processing

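Of 53 alternatives run, 29 stayed within the interval or within 1.5 times the count, and 24 moved. With −log10 q of 15 to under 20 there were 847 members, with 6.73% at gene ends, 52.5% in gene bodies, 10.9% with another member within 50 kb, 49.6% of neighbours without KO overlap and a median width of 416 bp. With 10 to under 15, 40.3% had another member within 50 kb and the width was 359.5 bp. With no KO peak within 500 bp, 5.21% were at gene ends, 38.9% had another member within 50 kb and 51.99% of neighbours had no KO overlap. A gene-end window of 2.5 kb gave 13.8% at gene ends, 48.4% in gene bodies and 37.9% intergenic, and all annotated genes gave 11.4%, 58.9% and 29.7%, with 99.6% of members in reach of a gene. Chain distances of 20 and 100 kb gave 21.3% and 65.3% with another member near. A reach of 10 or 500 kb left 70.8% or 99.8% of members with a gene. Without chromosomes 12, 15 and 18, 52.2% of neighbours had no KO overlap and the median gap to a KO peak was 2546 bp. Apart from alternatives that themselves widen or narrow a window, a gene set or the choice of members, the cause was not tested. The count of members was 4876 with no KO peak within 500 bp, 8859 where KO peaks had to cover 50% of a member, and 6431 counting KO peaks of −log10 q of at least 2. Leaving out replicates and the motif and GC settings were not run. No paired analysis was possible because each group is represented by 1 peak list. Depth could not be weighed, since no reads or totals come with the lists.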

Other observations

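Outside the autosomes the same q range and overlap rule gave 27 FM peaks on chromosome X, against 30 KO peaks with no FM overlap there. On chromosome Y there was 1 such FM peak and there were 11 such KO peaks, and on unplaced sequences 2 and 10. On X the shared FM peaks of the range numbered 184.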
